A study of Mus musculus with 24 samples.

Results

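Gene expression was compared between non-canonical CD8+ (NC_CD8) cells and plasmacytoid (PDC) cells sorted from the spleens of wild-type mice. The comparison rests on the labels alone. It uses the 3 NC_CD8 and the 2 PDC libraries of wild-type mice, 5 of the 24 libraries of the series, and all 18093 genes that passed the filter on low counts. Both groups came from F1 offspring of C57BL/6 and FVB/N parents that carried no Flt3 mutation (Flt3 +/+, WT). The remaining libraries came from 3 further subsets, canonical CD8+ (C_CD8), Esam-hi CD11b+ and Esam-lo CD11b+ cells, and from mice of the same cross with an internal tandem duplication on 1 Flt3 allele (Flt3 ITD/+, ITD). The 3 NC_CD8 WT libraries belong to experiment batches B, C and D, and the 2 PDC WT libraries to batches A and B, so that batch B is the only batch that holds both. Which surface markers defined the sort is not given in the sources used here, nor is how many mice gave the cells of a library.

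Plasmacytoid dendritic cells sense viral nucleic acids with endosomal Toll-like receptors and secrete type I interferon. Their fate depends on the E-protein transcription factor Tcf4. Conventional dendritic cells (cDC) take up antigen and present it to T cells on MHC class II. They express the transcription factor Zbtb46, and their cDC1 branch carries CD8 in the spleen. Both lineages develop under the growth factor receptor Flt3.

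Values below are in CPM, read counts per mega-read of library size after scaling for composition. They are given in the order of batches B, C and D for NC_CD8 libraries and of batches A and B for PDC libraries. A log2 fold change is NC_CD8 over PDC and carries its standard error (SE). A gene was called when its adjusted p from edgeR's quasi-likelihood test was under 0.05. RNA came from many sorted cells at once, so fewer cells of a type and less RNA per cell cannot be told apart.

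The 4 markers given for the 2 populations separated them in every library. Zbtb46 (ENSMUSG00000027583; chromosome 2, 181387762 to 181459426, - strand, mm10) was at 352, 365 and 371 CPM in NC_CD8 libraries, against 3.11 and 3.29 CPM in PDC libraries, a log2 fold change of 6.82 ± 0.25 (adjusted p = 2.95e-12). H2-Ob (ENSMUSG00000041538; chromosome 17, 34238903 to 34254414, + strand), the beta chain of the class II peptide-loading modulator H2-O, was at 725, 549 and 628 CPM in NC_CD8 cells, against 14.7 and 14.4 CPM in PDC (5.45 ± 0.19, adjusted p = 9.63e-13). Both were higher in NC_CD8 cells with no overlap and little spread. Siglech (ENSMUSG00000051504; chromosome 7, 55768178 to 55778925, + strand), a sialic acid-binding receptor used to identify mouse plasmacytoid cells, was at 258, 212 and 291 CPM in NC_CD8 cells, against 5388 and 4857 CPM in PDC (-4.33 ± 0.59, adjusted p = 2.05e-05). Cox6a2 (ENSMUSG00000030785; chromosome 7, 128205435 to 128206387, - strand), the muscle form of a subunit of cytochrome c oxidase, was at 2.7, 2.22 and 1.61 CPM in NC_CD8 cells, against 252 and 338 CPM in PDC (-7.07 ± 0.44, adjusted p = 2.41e-09). Siglech was much lower in NC_CD8 cells but far from absent, whereas Cox6a2 was near the bottom of the range. Within batch B alone, 1 library against 1, the log2 differences of Zbtb46, H2-Ob, Siglech and Cox6a2 were 6.69, 5.65, -4.23 and -6.91.

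**Figure D1:**
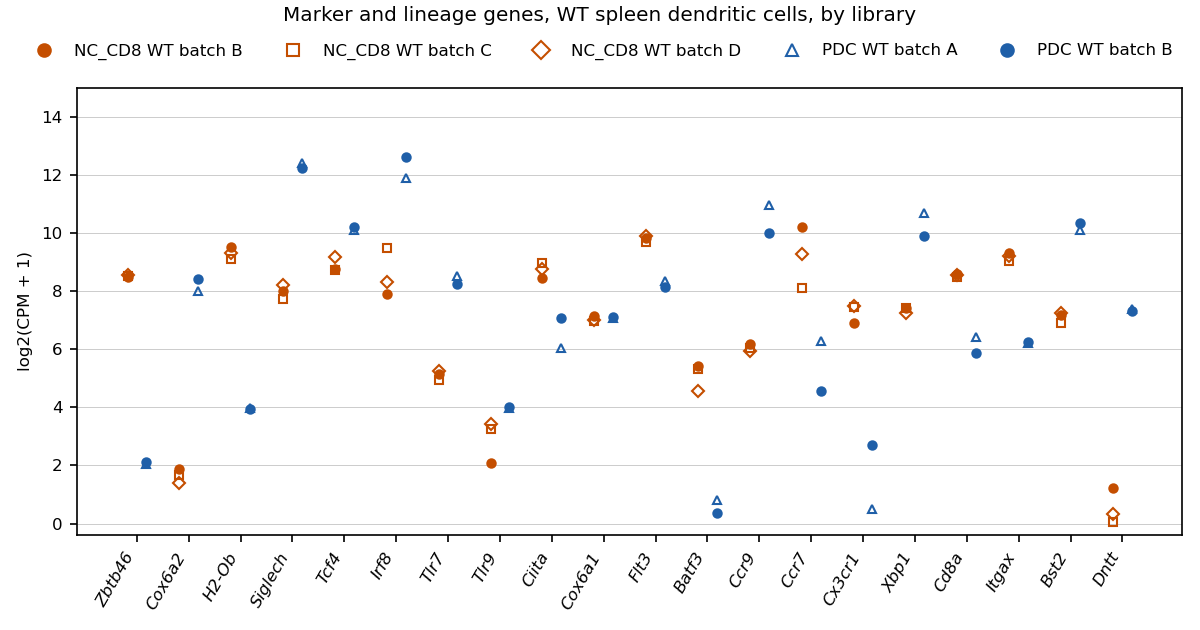
Each point is 1 WT library and the y axis is log2(CPM + 1) for 20 marker and lineage genes; NC_CD8 libraries stand left of PDC libraries, and filled symbols mark batch B, which both share. The points of NC_CD8 and PDC libraries lie apart for Zbtb46, Cox6a2, H2-Ob and Siglech, while those of Cox6a1 coincide.

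Of all tested genes 26.4% were called, 2474 (13.7%) with NC_CD8 cells higher than PDC and 2303 (12.7%) with NC_CD8 cells lower. The counts of gene lists below stand against these shares. The log2 fold change was at least 3 in size for 883 of the higher and 535 of the lower genes. In batch B, 2449 of the higher genes were higher and 2297 of the lower genes were lower in the NC_CD8 library than in the PDC library. The direction in batch B was opposite for 12 of the higher and 6 of the lower genes, and 13 of the higher genes had no read in either batch B library. The batch B libraries are part of the fit, so this agreement is a check on batches and not a second test. They also differed from each other in sex-linked, fibroblast and plasma cell transcripts, as given below. Over all tested genes the NC_CD8 library of that pair was higher for 8859 and lower for 8997. With experiment batch as a block 43.5% of genes were called, 4124 (22.8%) higher and 3746 (20.7%) lower, of which 2067 and 2041 were also called without it. List counts given with the block stand against these larger shares. Libraries of the groups did not overlap for 4520 (25.0%) of all tested genes with NC_CD8 cells higher and for 4306 (23.8%) with NC_CD8 cells lower, and for 2435 and 2249 of the called genes.

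**Figure D2:**
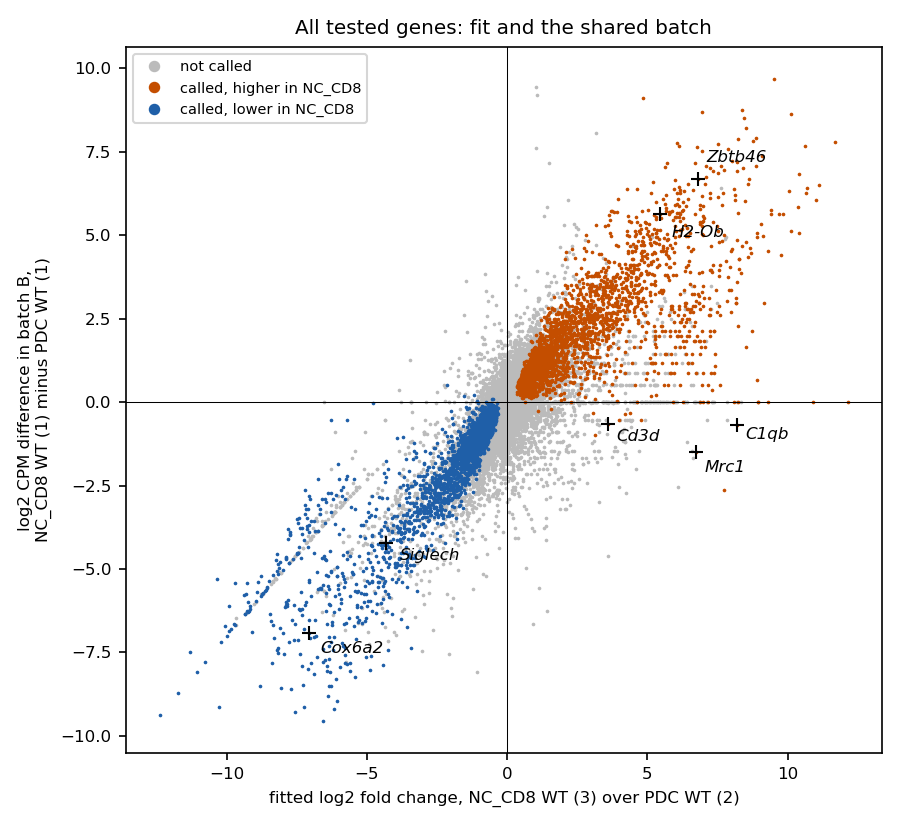
Each point is 1 of the 18093 tested genes, with the fitted log2 fold change of NC_CD8 WT over PDC WT on the x axis and the log2 CPM difference between the 2 batch B libraries on the y axis; orange genes were called higher and blue genes lower in NC_CD8 cells. The called genes lie in the upper right and lower left, apart from a few such as Mrc1, C1qb and Cd3d below the zero line on the right.

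The 5 libraries held 14112020 to 22248404 counts. Summed markers of some other spleen cells were higher in NC_CD8 libraries, chiefly in those of batches C and D, and summed markers of others were lower. The summed level of 11 markers of red pulp macrophages was 43.8, 1071 and 304 CPM in NC_CD8 libraries, against 17.9 and 23.7 CPM in PDC libraries. That of 7 erythroid genes was 4, 384 and 212 CPM, against 12.7 and 9.79 CPM. Markers of monocytes and neutrophils went the other way, at 432, 613 and 703 CPM, against 1606 and 2001 CPM. So did endothelial markers, at 146, 143 and 174 CPM, against 231 and 335 CPM. Whether these levels came from other cells was not tested. Fibroblast markers summed to 3.84 to 6.64 CPM in NC_CD8 libraries, against 1.6 and 178 CPM in PDC libraries, so that the PDC library of batch B stood apart. It also had the most plasma cell transcripts, with the light chain gene Igkc at 58.5, 227 and 90.1 CPM in NC_CD8 libraries, against 249 and 2085 CPM in PDC libraries. Libraries of 1 group differed from each other by more than counting noise, the chi-square statistic divided by its degrees of freedom being 27.2 to 74.5 among NC_CD8 libraries and 94.2 between the PDC libraries.

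**Figure D3:**
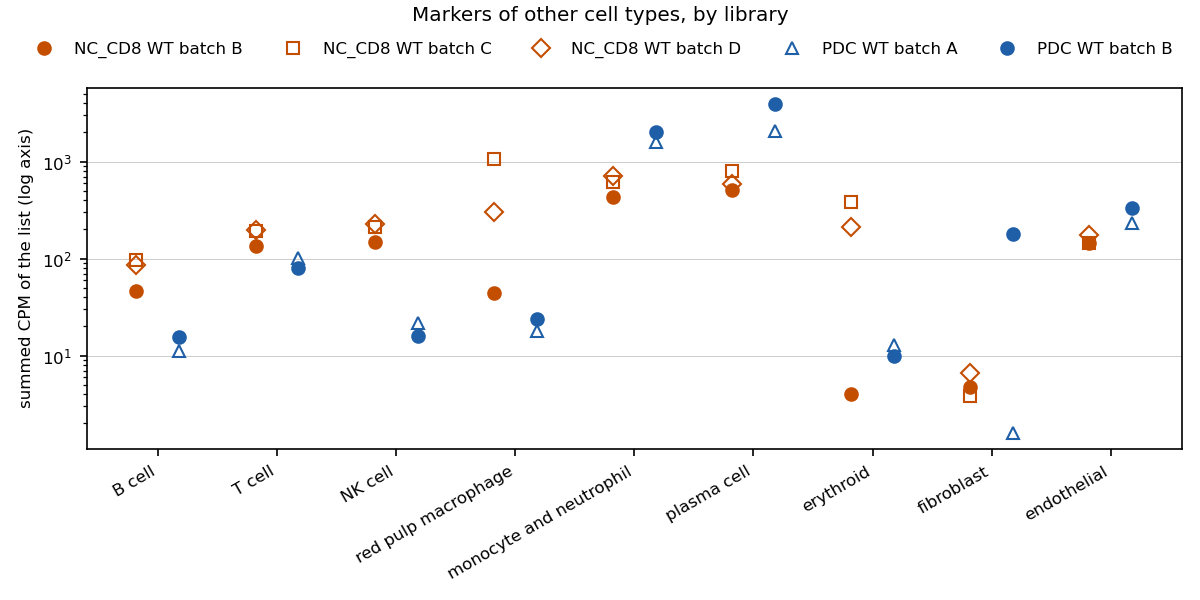
The y axis, on a log scale, is the summed CPM of the marker genes of each of 9 other cell types, with 1 point per WT library and NC_CD8 libraries left of PDC libraries. Red pulp macrophage and erythroid markers are highest in the NC_CD8 libraries of batches C and D, and fibroblast markers in the PDC library of batch B.

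The transcription factors of the plasmacytoid lineage split into a set that fell in NC_CD8 cells and a set that did not pass the test. Of 15 such factors, 9 were lower and none higher (edgeR; 10 lower and 1 higher at an unadjusted p under 0.05, and 9 and 0 by DESeq2), with a median log2 fold change of -1.57, against 0.03 over all genes tested. Tcf4 itself was at 434, 418 and 572 CPM in NC_CD8 cells, against 1101 and 1174 CPM in PDC (-1.26 ± 0.19, adjusted p = 7.76e-05). The groups did not overlap, yet the gap was a small one beside those of the surface markers. Spib, an Ets factor that cooperates with Tcf4, was at 93.9, 136 and 147 CPM, against 1405 and 927 CPM (-3.22 ± 0.32). Irf7, which drives interferon transcription, was at 52.7, 44.2 and 45.2 CPM, against 347 and 481 CPM (-3.13 ± 0.23, adjusted p = 1.69e-08). Irf8 was at 238, 708 and 313 CPM in NC_CD8 cells, highest in batch C, against 3765 and 6201 CPM in PDC (-3.57 ± 0.54, adjusted p = 6.26e-05). Xbp1, Tcf12, Tsc22d1, Ets1 and Runx2 fell as well, with log2 fold changes of -2.99, -2.02, -2.53, -2.98 and -1.57. The call of Runx2 was lost without the PDC library of batch B (adjusted p = 0.288) and without the NC_CD8 library of batch B (adjusted p = 0.0867).

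The factors that did not pass the test were Zeb2, Bcl11a, Cbfa2t3, Foxp1, Myb and Tcf3. Zeb2, a repressor needed by plasmacytoid cells, was at 201, 290.0 and 314 CPM in NC_CD8 cells, against 257 and 343 CPM in PDC (-0.16 ± 0.34, adjusted p = 0.776). Bcl11a was at 145, 376 and 330.3 CPM, against 174 and 391 CPM (0.01 ± 0.56), and its libraries of 1 group differed more than the groups did. With the batch block Bcl11a was lower (-1.54, adjusted p = 7.51e-07) and Foxp1 higher (1.44, adjusted p = 5.21e-06), and in batch B alone their log2 differences were -1.43 and 1.43. Cbfa2t3, Myb and Tcf3 were also lower with the block, at -0.39, -1.15 and -0.74, so that 13 of 15 factors were lower and 1 higher in that fit. Over all tested genes the block called 20.7% lower and 22.8% higher.

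Surface and marker genes of plasmacytoid cells were lower in NC_CD8 cells in 20 of 22 cases, and none was higher (edgeR; 20 and 0 at an unadjusted p under 0.05, and 20 and 0 by DESeq2). The median log2 fold change was -3.87. In the batch B pair, 21 of the 22 were lower. Bst2, the tetherin antigen, was at 142, 118 and 152 CPM in NC_CD8 cells, against 1089 and 1298 CPM in PDC (-3.12 ± 0.23, adjusted p = 1.27e-08). Ccr9, a gut-homing chemokine receptor, was at 71, 65.1 and 60.7 CPM, against 1969 and 1009 CPM (-4.50 ± 0.40, adjusted p = 1.69e-07). Ly6d was at 19.5, 17.6 and 30.3 CPM, against 1889 and 1971 CPM (-6.43 ± 1.06, adjusted p = 0.00016). Each of the 3 was lower in every NC_CD8 library than in either PDC library. The lowest fold changes of the list were those of Klk1, Cox6a2, Ly6d and Smim5, at -8.39, -7.07, -6.43 and -6.26. The smallest called change was that of Plac8, at 594, 446 and 512 CPM in NC_CD8 cells, against 795 and 1083 CPM in PDC (-0.86 ± 0.20, adjusted p = 0.00402), and was lost without the PDC library of batch B (adjusted p = 0.0905).

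A pair of genes on the same list did not pass the test. Lag3, an inhibitory receptor that binds MHC class II, was at 69.6, 58.3 and 92.7 CPM in NC_CD8 cells, against 60.4 and 78.1 CPM in PDC (0.09 ± 0.39, adjusted p = 0.903). Cd7 was at 529, 410.0 and 477 CPM, against 325 and 344 CPM (0.50 ± 0.39, adjusted p = 0.384), and was higher with the batch block (1.03, adjusted p = 0.00598). Klra17, a Ly49-type receptor, passed narrowly, at 112, 121 and 137 CPM in NC_CD8 cells, against 367 and 294 CPM in PDC (-1.42 ± 0.47, adjusted p = 0.0314), but not with the block (-0.91, adjusted p = 0.117) or without any 1 of the 5 libraries (adjusted p from 0.0605 to 0.142). In C_CD8 WT cells the same genes averaged 2.33 ± 0.299, 14.8 ± 7.25 and 1.12 ± 0.854 CPM (SD, n = 3).

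Promoters of 3 of the plasmacytoid genes that fell are shown because each holds, in the 150 bases before its annotated start, the hexamer CAGGTG that E proteins such as Tcf4 can bind. The sequences are RefSeq's for GRCm38.p6, read 5′ to 3′ along the gene, and capitals mark the hexamer on either strand (CACCTG on the other strand).
Siglech (chr7:55768034-55768183, + strand): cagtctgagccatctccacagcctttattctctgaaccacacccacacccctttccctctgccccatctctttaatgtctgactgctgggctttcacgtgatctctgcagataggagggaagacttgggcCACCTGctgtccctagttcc
Ccr9 (chr9:123767061-123767210, + strand): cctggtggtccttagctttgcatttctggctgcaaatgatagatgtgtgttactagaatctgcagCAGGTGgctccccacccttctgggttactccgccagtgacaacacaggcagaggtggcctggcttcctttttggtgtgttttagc
Klk1 (chr7:44225210-44225359, + strand): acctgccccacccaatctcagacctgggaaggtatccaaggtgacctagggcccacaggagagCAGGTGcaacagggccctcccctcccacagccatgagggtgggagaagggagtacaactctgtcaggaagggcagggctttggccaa
The hexamer starts 20 bases before the start in Siglech, 85 in Ccr9 and 87 in Klk1. Of the 22 listed genes, 16 had a promoter entry, and 7 of the 16 (43.8%) held CAGGTG on either strand in their 250 bases before the start: Bst2, Ccr9, Cd300c, Havcr1, Klk1, Paqr5 and Siglech. Among the 11202 tested genes with an entry the share was 18.9%, among genes called lower 22.2% and among genes called higher 19.5%. The hexamer was chosen with the results known, a match is no evidence of binding, and the shares carry no test.

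The conventional side was the reverse. Of 21 cDC transcription factors, 17 were higher and 3 lower in NC_CD8 cells (median log2 fold change 2.32). Zfp366, known as DC-SCRIPT, was at 64.1, 73.2 and 41.1 CPM in NC_CD8 cells, against 0.0444 and 0.0492 CPM, 1 read each, in PDC (10.11 ± 0.99, adjusted p = 4.66e-07). Batf3, the cDC1 factor, was at 41.5, 39.1 and 22.4 CPM, against 0.755 and 0.295 CPM (5.99 ± 0.54, adjusted p = 1.82e-07). Spi1, which encodes PU.1, was at 832, 454 and 566 CPM, against 89.1 and 97.1 CPM (2.73 ± 0.27, adjusted p = 6.63e-07). None of these values overlapped between groups. Relb, Rel and Etv3 rose by log2 2.02, 2.95 and 3.09. Id2 and Nfil3 were called with wide errors (2.73 ± 0.81 and 2.32 ± 0.81), and Id2 was at 265, 338 and 112 CPM in NC_CD8 cells, against 61.1 and 10.6 CPM in PDC. Without the PDC library of batch B both calls were lost (adjusted p = 0.166 and 0.296), and that of Nfil3 also without the NC_CD8 library of batch B or D (adjusted p = 0.158 and 0.0541). The 3 that fell were Irf1, Klf2 and Mycl, at -2.11, -1.97 and -1.15. The call of Mycl was lost without any 1 library other than the NC_CD8 library of batch C (adjusted p from 0.0667 to 0.0808). Klf2, a factor of lymphocyte quiescence and trafficking, was at 137, 149 and 167 CPM, against 427 and 756 CPM. Batf did not pass the test (-0.51 ± 0.40).

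Genes of both conventional branches were higher in NC_CD8 cells. Of 18 cDC1 genes 14 were higher and 2 lower, with a median log2 fold change of 3.39. Xcr1, the chemokine receptor of cDC1, was at 52, 148 and 22.1 CPM in NC_CD8 cells, against 1.38 and 1.48 CPM in PDC (5.69 ± 0.79, adjusted p = 2.69e-05). Naaa, a lysosomal amidase, was at 202, 421 and 85.4 CPM, against 16 and 19 CPM (3.75 ± 0.52). Tlr11, an endosomal receptor for profilin, was at 18.5, 60.6 and 8.52 CPM, against 0.0889 and 0 CPM (9.09 ± 1.20). In each of these 3 the NC_CD8 library of batch C was highest and that of batch D lowest, although all 3 lay above both PDC libraries. Cd8a varied little, at 383, 355 and 373 CPM in NC_CD8 cells, against 85.1 and 57.2 CPM in PDC (2.38 ± 0.25, adjusted p = 9.8e-07). Irf8 and Cadm1, an adhesion molecule, fell (-3.57 and -1.27), and Clec9a and Cd36 did not pass the test. Clec9a, a receptor for dead cells, was at 59.6, 87.1 and 55.3 CPM in NC_CD8 cells, against 53.2 and 61.4 CPM in PDC (0.23 ± 0.33). In C_CD8 WT cells, Xcr1 averaged 984 ± 293, Naaa 2489 ± 642 and Tlr11 297 ± 127 CPM (SD, n = 3). Without the NC_CD8 library of batch C, which had the highest macrophage and erythroid marker sums, 14 of the 18 were higher and 2 lower. The part of RNA from such cells in these levels was not tested.

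Of 16 cDC2 genes 10 were higher and 3 lower (median 1.66). Tmem176b, a membrane channel protein of myeloid cells, was at 825, 653 and 826 CPM in NC_CD8 cells, against 12.5 and 23.1 CPM in PDC (5.43 ± 0.56). Clec4a4, a lectin known as DCIR2, was at 25.7, 31.8 and 32.1 CPM, against 0.222 and 0.246 CPM (6.95 ± 0.58), and Dtx1, a Notch target, at 46.9, 42.8 and 58.1 CPM, against 0.978 and 0.492 CPM (6.04 ± 0.54). The 3 members that fell were Cd4 and the related galactose-type lectins Clec10a and Mgl2. Cd4 was at 163, 84 and 98.2 CPM, against 599 and 641 CPM (-2.43 ± 0.50, adjusted p = 0.00135), and Clec10a at 32.8, 50.3 and 65.4 CPM, against 197 and 250.3 CPM (-2.18 ± 0.37). Cd209a, Sirpa and Klrd1 did not pass the test. Cd209a, a DC-SIGN homologue, was at 542, 430.2 and 589 CPM in NC_CD8 cells, against 581 and 581 CPM in PDC (-0.16 ± 0.26, adjusted p = 0.705), and Sirpa at 336, 477 and 486 CPM, against 321 and 413 CPM (0.24 ± 0.36). C_CD8 WT cells averaged 10.3 ± 2.08 CPM of Cd209a and 25.5 ± 7.66 CPM of Sirpa (SD, n = 3).

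**Figure D4:**
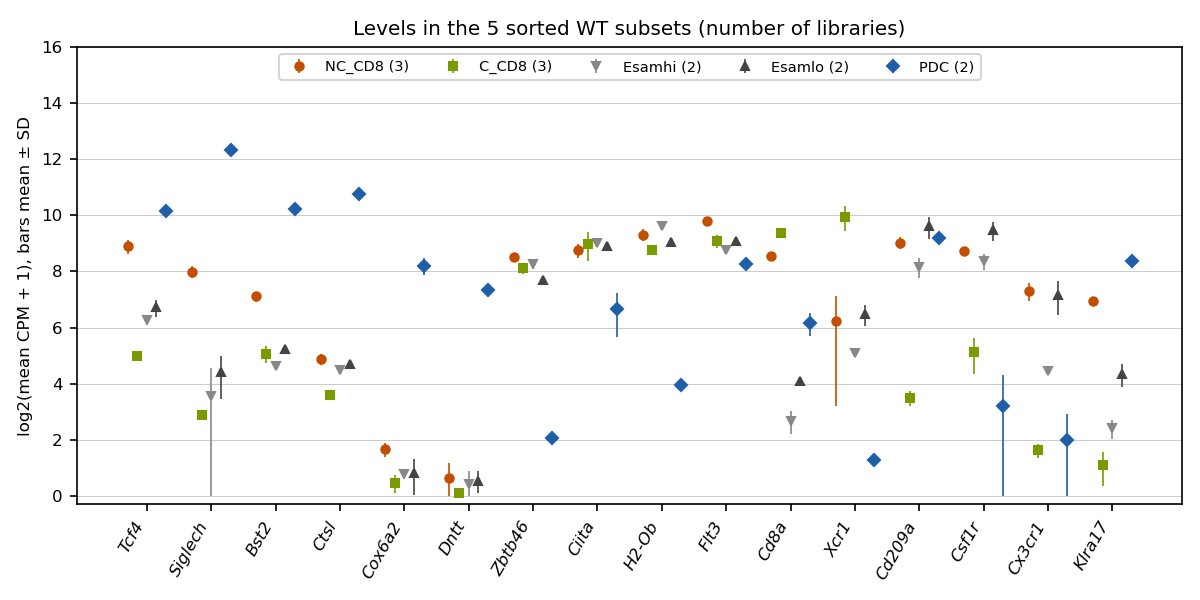
The y axis is log2(mean CPM + 1) and the bars run from the mean minus 1 SD to the mean plus 1 SD over the WT libraries of each of the 5 sorted subsets, NC_CD8 first and PDC last. NC_CD8 cells lie between PDC and the other subsets for Tcf4, Siglech, Bst2 and Klra17, and at the level of the other subsets for Zbtb46, Ciita and H2-Ob.

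Genes of antigen presentation on MHC class II were mostly higher in NC_CD8 cells. Of 18 genes 14 were higher and 1, Rfxank, lower, with a median log2 fold change of 1.53, and 17 of 18 were higher in the batch B pair. The classical chain H2-Aa was at 12515, 9084 and 10309 CPM in NC_CD8 cells, against 3589 and 2767 CPM in PDC (1.74 ± 0.18, adjusted p = 9.71e-07). H2-Eb1 was at 5331, 3682 and 4335 CPM, against 949 and 786 CPM (2.36 ± 0.20, adjusted p = 1.06e-07), and the invariant chain gene Cd74 at 27827, 25832 and 29623 CPM, against 10717 and 10227 CPM (1.41 ± 0.13). Class II transcripts were thus abundant in PDC as well. H2-Ob stood apart from its partner H2-Oa, which was at 339.6, 274 and 320.0 CPM in NC_CD8 cells, against 105 and 121 CPM in PDC (1.46 ± 0.16). The peptide exchange subunits H2-DMa, H2-DMb1 and H2-DMb2 rose by log2 0.78, 1.15 and 2.08, and H2-DMb1 and H2-DMb2 share 22.7% and 25.9% of their 50-base words with other genes, mostly each other. Ciita, the master coactivator of class II genes, was at 351, 502 and 434 CPM in NC_CD8 cells, against 64.5 and 134 CPM in PDC (2.11 ± 0.40, adjusted p = 0.000645). Of the RFX subunits that bind class II promoters, Rfx5 was higher (0.93), Rfxank lower (-0.52) and Rfxap not called (0.39). With the batch block the calls of Rfx5 (0.28, adjusted p = 0.294) and of the ubiquitin ligase gene March1 (0.36, adjusted p = 0.0963) were lost. They were lost too without the PDC library of batch A (adjusted p = 0.249 and 0.272), the NC_CD8 library of batch C (0.0686 and 0.13) or that of batch D (0.0595 and 0.0615), and that of Rfxank without the PDC library of batch B (adjusted p = 0.136).

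Upstream sequences of 5 class II genes that rose are shown because such promoters carry a conserved X box, bound by RFX, and a Y box, an inverted CCAAT element. Each is the 150 bases before the RefSeq start (GRCm38.p6), 5′ to 3′ along the gene. Capitals mark TGATTGG, searched as the core of the Y box, and AGCAAC, searched as that of the X box, on either strand; the 2 do not overlap.
H2-Ob (chr17:34238755-34238904, + strand): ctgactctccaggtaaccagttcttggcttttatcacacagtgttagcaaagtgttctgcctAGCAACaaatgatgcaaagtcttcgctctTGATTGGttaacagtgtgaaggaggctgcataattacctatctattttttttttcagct
H2-Oa (chr17:34092229-34092378, + strand): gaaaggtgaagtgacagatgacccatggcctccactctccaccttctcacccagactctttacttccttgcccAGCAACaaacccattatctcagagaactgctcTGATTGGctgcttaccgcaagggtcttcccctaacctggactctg
H2-Aa (chr17:34287824-34287973, - strand): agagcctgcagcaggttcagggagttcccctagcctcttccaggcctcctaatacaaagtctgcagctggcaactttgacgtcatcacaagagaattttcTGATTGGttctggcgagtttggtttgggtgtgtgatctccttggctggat
H2-Eb1 (chr17:34305717-34305866, + strand): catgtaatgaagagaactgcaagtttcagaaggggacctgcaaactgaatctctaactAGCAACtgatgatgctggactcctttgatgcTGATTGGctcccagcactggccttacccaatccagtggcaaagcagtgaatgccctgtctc
H2-DMb2 (chr17:34145099-34145248, + strand): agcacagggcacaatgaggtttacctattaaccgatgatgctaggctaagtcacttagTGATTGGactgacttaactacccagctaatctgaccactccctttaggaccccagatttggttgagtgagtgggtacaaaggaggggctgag
TGATTGG lies 45 to 92 bases before the start in these 5, and AGCAAC 77 to 92 bases before it in H2-Ob, H2-Oa and H2-Eb1. H2-Ob, with by far the largest fold change of the 5, and H2-Oa, with the smallest, both hold the 2 cores. Of the 18 listed genes 13 had a promoter entry. TGATTGG was in 8 of the 13 (61.5%) and AGCAAC in 5 (38.5%) within 250 bases before the start, against 11.1% and 12.6% of all 11202 tested genes with an entry. Among genes called higher the shares were 9.41% and 11.7%, and among genes called lower 11.9% and 13.5%. The 5 promoters shown were picked from the 8 with TGATTGG, so its presence in them follows from the choice. A match is no evidence of binding, and the shares carry no test.

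Genes for presentation on MHC class I fell or did not pass the test. Of 16 genes 8 were lower and none higher (edgeR; 9 and 0 at an unadjusted p under 0.05, and 9 and 0 by DESeq2), with a median log2 fold change of -0.49. Tapbpl, Psmb10 and Tapbp, which edit or generate class I peptides, had log2 fold changes of -1.40, -0.91 and -0.90. H2-K1 was at 1956, 1658 and 1832 CPM in NC_CD8 cells, against 3112 and 3188 CPM in PDC (-0.80 ± 0.15, adjusted p = 0.000477). The count of 8 moved with single libraries: it was 5 without the NC_CD8 library of batch C, 4 without that of batch D and 5 without the PDC library of batch A. In the same fits the count of lower genes over all genes fell from 2303 to 1825, 1771 and 1805. The list median was -0.47, -0.44 and -0.43. Tap1, B2m, Psmb8 and Psmb9 were among the members that did not pass the test.

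**Figure D5:**
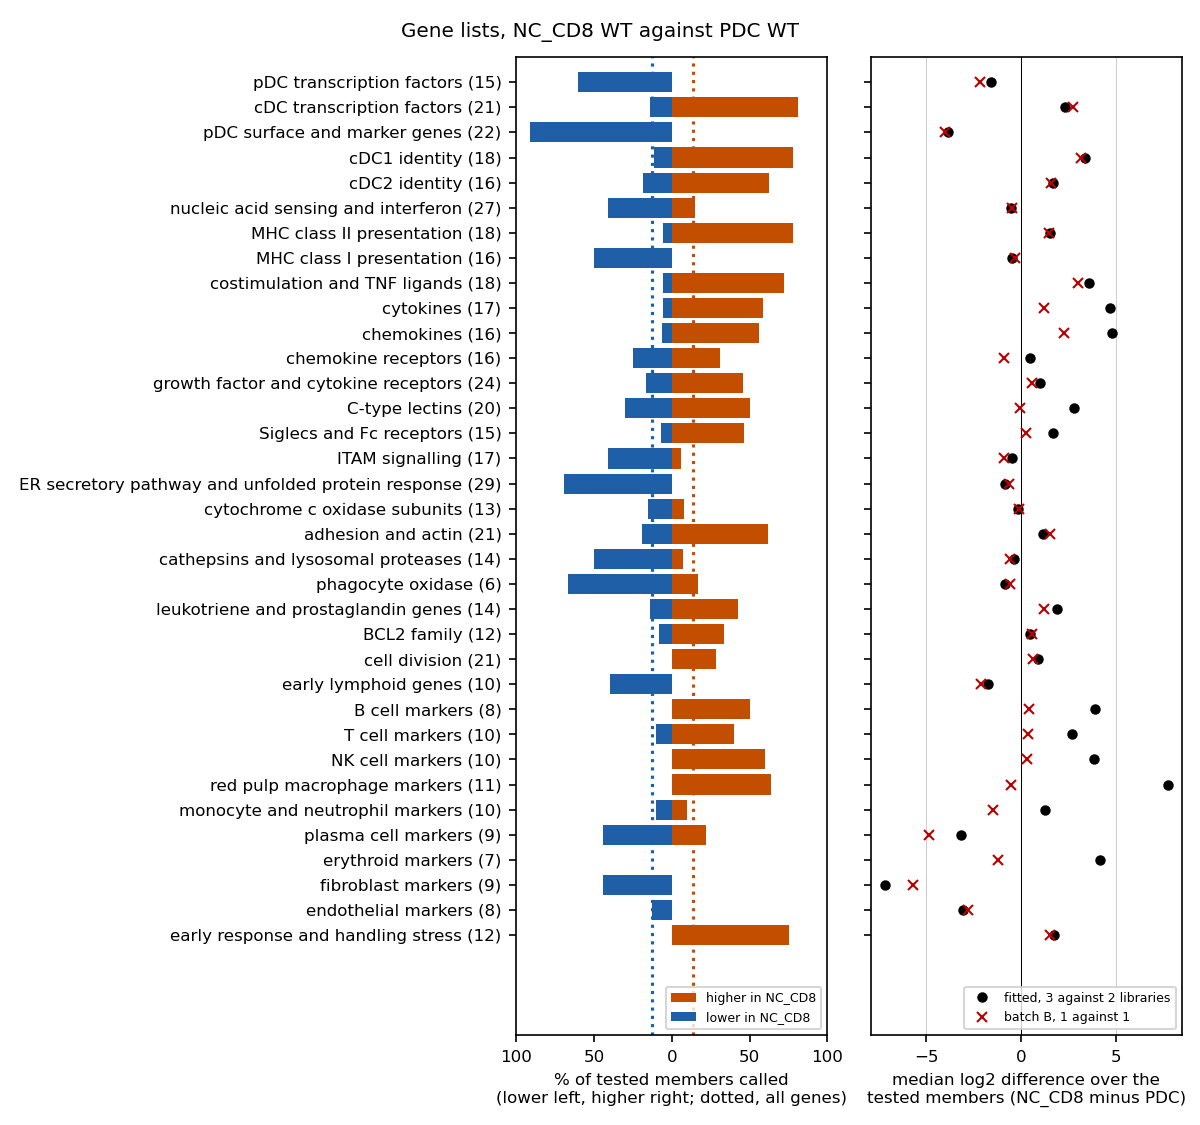
The left panel gives, for each gene list (number of tested members in brackets), the share of members called higher (orange, right) and lower (blue, left) in NC_CD8 WT cells against PDC WT cells, with dotted lines at the shares over all tested genes; the right panel gives the median log2 difference in the fit (dots) and in the batch B pair (crosses). Plasmacytoid lists and the secretory pathway lie to the left and class II, costimulation and chemokine lists to the right, while fit and batch B differ most for red pulp macrophage and erythroid markers.

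Most costimulatory molecules and cytokines were higher in NC_CD8 cells. Of 18 costimulatory and TNF family genes 13 were higher and 1, Cd200, lower. The median log2 fold change was 3.56, or 3.37 with genes that had no PDC read set at their lower bound. Of the 18 genes 9 were higher without the PDC library of batch A and 10 without that of batch B. Cd86 was at 394, 178 and 205 CPM in NC_CD8 cells, against 11.9 and 9.2 CPM in PDC (4.61 ± 0.57, adjusted p = 7.01e-06). Cd80, which shares its receptors with Cd86, was at 107, 40.4 and 76.8 CPM, against 1.02 and 0.148 CPM (6.95, adjusted p = 4.02e-05). Cd40 was at 55.7, 52.2 and 55.2 CPM, against 4.84 and 5.31 CPM (3.42 ± 0.19, adjusted p = 5.49e-10). Cd200, an inhibitory ligand, was at 16.8, 32.7 and 22.9 CPM, against 150.1 and 176 CPM (-2.75 ± 0.29).

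Of 17 cytokine genes 10 were higher and 1 lower (median 4.71, 3.32 at the bounds and 1.19 in the batch B pair, where a prior count of 2 shrinks low genes). Il1b was at 1373, 812 and 1291 CPM in NC_CD8 cells, against 3.96 and 3.05 CPM in PDC (8.37 ± 0.62, adjusted p = 1.63e-08). Il12b was at 11, 6.5 and 8.59 CPM, against 0.133 and 0.0492 CPM (6.44 ± 1.45), while its partner Il12a was the 1 that fell, at 1.59, 0.64 and 1.01 CPM, against 25.1 and 3.39 CPM (-3.71 ± 1.02). The call of Il12a was lost with the block (adjusted p = 0.191) and without the PDC library of batch A (adjusted p = 0.358). Of 16 chemokines 9 were higher and 1, Ccl4, lower (median 4.78, 3.74 at the bounds and 2.27 in the batch B pair). Ccl9 was at 40.3, 61.3 and 66.5 CPM, against 0.444 and 1.18 CPM (6.11 ± 0.53), and Cxcl16 at 50.6, 46.1 and 46.4 CPM, against 1.16 and 0.984 CPM (5.47 ± 0.44). Ccl4 was at 213, 266 and 286 CPM, against 759 and 1899 CPM (-2.38 ± 0.38, adjusted p = 0.00011). Genes of early response and handling stress also moved with these groups, 9 of 12 higher and none lower (edgeR and DESeq2, 9 and 0 at an unadjusted p under 0.05; 9 higher and 2 lower with the batch block), with a summed level of 17862 to 21605 CPM in NC_CD8 libraries, against 7728 and 13970.0 CPM in PDC libraries. Their part in these results was not tested.

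Chemokine receptors divided between the populations, 5 of 16 higher and 4 lower in NC_CD8 cells, and 5 and 7 with the batch block. Ccr7, which guides dendritic cells to lymph vessels and T cell zones, was at 1185, 274 and 622 CPM in NC_CD8 cells, against 76.7 and 22.6 CPM in PDC (3.80 ± 1.07, adjusted p = 0.0129), and lost its call without the PDC library of batch B (adjusted p = 0.133). Cx3cr1, the fractalkine receptor, was at 117, 173 and 180.0 CPM, against 0.4 and 5.56 CPM (5.73 ± 0.72, adjusted p = 8.82e-06). Cxcr3 was at 2.17, 17.3 and 4.83 CPM, against 99.1 and 184 CPM (-4.12 ± 0.73), and the sphingosine phosphate receptor S1pr4 at 3.23, 3.99 and 3.35 CPM, against 47.9 and 49.9 CPM (-3.79 ± 0.44). Ccr2 did not pass the test (-0.53 ± 0.40).

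Among growth factor and cytokine receptors 11 of 24 were higher and 4 lower, and 7 were higher when either PDC library was left out. Flt3 was at 902, 816 and 956 CPM in NC_CD8 cells, against 323 and 282 CPM in PDC (1.56 ± 0.15, adjusted p = 3.86e-07), with no overlap. Kit was at 554, 424 and 547 CPM, against 37.4 and 12.7 CPM (4.34 ± 0.48), and Csf1r at 383, 447 and 425 CPM, against 0.711 and 15.6 CPM (5.69 ± 0.92). Il7r, a receptor of lymphoid progenitors, was at 31.4, 17.6 and 17.2 CPM, against 301 and 181 CPM (-3.45 ± 0.39). The GM-CSF receptor split by chain, with Csf2ra higher (1.38) and Csf2rb and Csf2rb2 lower (-1.06 and -1.89); the last 2 share 12.3% and 18.9% of their 50-base words with other genes. The call of Csf2rb was lost without the PDC library of batch A or the NC_CD8 library of batch C (adjusted p = 0.0623 and 0.053).

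Nucleic acid sensing and interferon signalling was partly lower. Of 27 genes 11 were lower and 4 higher in NC_CD8 cells (median -0.51). Tlr7, a receptor for single-stranded RNA, was at 34.2, 29.7 and 36.9 CPM in NC_CD8 cells, against 368 and 298 CPM in PDC (-3.31 ± 0.45, adjusted p = 2.25e-05). Tlr9, its counterpart for CpG DNA, was at 3.27, 8.52 and 9.86 CPM, against 14.6 and 14.9 CPM. The groups did not overlap, and the difference passed the test with the batch block (-2.12, adjusted p = 1.02e-06) but not without it (-1.04 ± 0.50, adjusted p = 0.136). Ifnar2, Stat2 and Irf9, which carry the interferon signal, had log2 fold changes of -2.20, -1.52 and -1.31. The members that rose were Tlr3, Ddx58, Ifih1 and Irak4, the first 3 sensors of double-stranded RNA. Tlr3 was at 12.5, 53.7 and 8.52 CPM in NC_CD8 cells, against 0.133 and 0.0984 CPM in PDC (7.66 ± 1.21), and Ddx58, which encodes RIG-I, at 9.58, 9.01 and 14.2 CPM, against 1.29 and 2.26 CPM (2.62 ± 0.46). The call of Ifih1 was lost without the PDC library of batch A (adjusted p = 0.0601) and that of Stat2 without the PDC library of batch B (adjusted p = 0.081). Myd88, Irf5 and Tbk1 did not pass the test, with fold changes of 0.25, -0.02 and 0.03.

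Genes of the secretory pathway were lower more often than higher in NC_CD8 cells, 20 of 29 lower and none higher (edgeR; 22 and 0 at an unadjusted p under 0.05, and 21 and 0 by DESeq2), with a median of -0.84. Xbp1, the unfolded protein response factor of secretory cells, was at 171, 168 and 152 CPM in NC_CD8 cells, against 1653 and 959 CPM in PDC (-2.99 ± 0.21, adjusted p = 1.04e-08). The chaperone Hsp90b1 was at 400.1, 398 and 381 CPM, against 1426 and 1346 CPM (-1.82 ± 0.15), and Manf at 72.8, 71.5 and 63.6 CPM, against 285 and 227 CPM (-1.89 ± 0.21). Translocon, signal peptidase and disulfide isomerase genes such as Sec61a1, Spcs2 and Pdia4 fell too, with log2 fold changes of -1.80, -1.32 and -1.19. Plasma cell markers summed to 2087.5 and 3925.7 CPM in the PDC libraries of batches A and B, against 506 to 804 CPM in NC_CD8 libraries. The secretory genes summed to 13421 and 9844 CPM in the same PDC libraries, the opposite order. The part of plasma cell RNA in these levels was not tested. Of the 29 genes 20 were lower without the PDC library of batch B (median -1.08) and 14 without that of batch A (median -0.57). With the batch block 15 were lower and 1 higher (median -0.49), and 13 were lower with the 5 libraries of the comparison fitted alone.

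Several protease and signalling genes were lower in NC_CD8 cells with small errors. Ctsl, which encodes the endosomal protease cathepsin L, was at 25.6, 26.7 and 32.9 CPM in NC_CD8 cells, against 1813 and 1649 CPM in PDC (-5.93 ± 0.20, adjusted p = 9.63e-13); 26.3% of its 50-base words occur in other annotated genes. Ctsb was at 1049, 968 and 908 CPM, against 4586 and 4963 CPM (-2.29 ± 0.16), and Ctse at 22.7, 29.7 and 28.3 CPM, against 395 and 239 CPM (-3.56 ± 0.23). In all, 7 of 14 cathepsin and lysosomal protease genes were lower and 1, the inhibitor Cst3, higher. Ctss, the cathepsin that trims the invariant chain, was not called (0.36 ± 0.14, adjusted p = 0.0564). Of the 14 genes 5 were lower without either PDC library and without the NC_CD8 library of batch C or D. With the libraries of the comparison fitted alone 5 were lower and 0 higher, and with the batch block 7 were lower and 4 higher. ITAM-associated signalling genes were lower in 7 of 17 cases and higher in 1, against 12.7% and 13.7% of all tested genes. The adaptor gene Tyrobp was at 471, 384 and 478 CPM, against 1659.9 and 1839 CPM (-1.98 ± 0.18), the kinase Fyn at 251, 223 and 269 CPM, against 1625 and 1365 CPM (-2.60 ± 0.15, adjusted p = 8.26e-10), and Blnk at 42.8, 41.9 and 67.8 CPM, against 457 and 307 CPM (-2.91 ± 0.49). Of 6 genes of the phagocyte oxidase 4 were lower, Rac2, Ncf1, Ncf4 and Cyba, and 1 was higher. Without the PDC library of batch A 2 of the 4 passed, Rac2 and Ncf4, while Ncf1 and Cyba did not (adjusted p = 0.211 and 0.0993). Cyba was also lost with the block (adjusted p = 0.0917) and without the PDC library of batch B or the NC_CD8 library of batch C or D (adjusted p from 0.0757 to 0.116). Rac2 was at 149, 170.5 and 173 CPM in NC_CD8 cells, against 1015 and 1251 CPM in PDC (-2.79 ± 0.16, adjusted p = 1.38e-09).

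Most other subunits of the respiratory oxidase that holds Cox6a2 did not pass the test. Of 13 cytochrome c oxidase genes tested, 2 were lower, Cox6a2 and Cox8a (-0.52), and 1 was higher, the testis form Cox6b2 (3.25, at 4.28, 7.24 and 10.4 CPM in NC_CD8 cells, against 0.444 and 1.08 CPM in PDC). The call of Cox8a was lost without the PDC library of batch B or the NC_CD8 library of batch C or D (adjusted p from 0.0537 to 0.152). The remaining 10 ranged from -0.47 (Cox7a2) to 0.29 (Cox7c) without passing the test. Over all tested genes 12.7% were lower and 13.7% higher, so the counts of this list were near those shares. Cox6a1, the form of the same subunit used in most tissues, was at 139, 125 and 128 CPM in NC_CD8 cells, against 132 and 138 CPM in PDC (-0.05 ± 0.17, adjusted p = 0.883), and its fold change was 0.18 with the block (adjusted p = 0.267). Per kilobase of exon, the mean level of Cox6a2 was 3.2 CPM in NC_CD8 cells and 434 CPM in PDC, and that of Cox6a1 186 CPM in NC_CD8 cells and 192 CPM in PDC.

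C-type lectins, Siglecs and Fc receptors included some of the widest gaps. Clec7a, which encodes the beta-glucan receptor Dectin-1, was at 1426, 496 and 1249.8 CPM in NC_CD8 cells, against 1.29 and 1.62 CPM in PDC (9.50 ± 1.58, adjusted p = 0.00018). Clec4b1 was at 6.35, 10.9 and 10.9 CPM in NC_CD8 cells with no read in PDC, at least 134-fold higher against a floor of 3 counts over the PDC libraries. In total 10 of 20 lectin genes were higher and 6 lower, with a median of 2.80 in the fit and -0.06 in the batch B pair. Among those that fell were Cd69, an early activation antigen, at 76.8, 48.9 and 47 CPM, against 411 and 271 CPM (-2.57 ± 0.32), and Clec12a at 179, 188 and 178 CPM, against 556 and 504 CPM (-1.54 ± 0.17). Mrc1 was called higher (6.73) but was opposite in batch B (-1.50), with 0.0481, 40.5 and 14.4 CPM in NC_CD8 libraries, against 0 and 0.344 CPM in PDC libraries, the order of the red pulp macrophage markers. It was not called with the block (adjusted p = 0.434) or without either PDC library or the NC_CD8 library of batch C (adjusted p from 0.0779 to 0.159). Of 15 Siglec and Fc receptor genes 7 were higher and 1, Fcrla, lower, and 4 were higher without the PDC library of batch A. Fcrl1, an Fc receptor-like gene best known in B cells, was at 59.8, 61.2 and 62.5 CPM in NC_CD8 cells, against 0.311 and 0.197 CPM in PDC (7.86 ± 0.34, adjusted p = 2.79e-11), and Fcrla at 7.85, 7.29 and 12.1 CPM, against 169.6 and 137 CPM (-4.08 ± 0.48).

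In NC_CD8 cells 13 of 21 adhesion and actin genes rose and 4 fell. Fscn1, the actin bundler of dendrites, was at 423, 318 and 502 CPM in NC_CD8 cells, against 6.53 and 8.46 CPM in PDC (5.79 ± 0.46, adjusted p = 4.65e-08), and Itgax, which encodes CD11c, at 626, 528 and 587 CPM, against 72.7 and 74.5 CPM (2.98 ± 0.19, adjusted p = 2.58e-09). Both differences were well outside the spread of the libraries. The members that fell were Cdh1, Cd44, Itgal and Itgb7. Cdh1, E-cadherin, was at 5.97, 3.35 and 5.17 CPM, against 222 and 215 CPM (-5.50 ± 0.69), and Cd44, the hyaluronan receptor, at 121, 132 and 103 CPM, against 1252 and 495 CPM (-2.88 ± 0.33). A further cadherin on the endothelial list, Cdh5, was at 1.68, 1.48 and 1.54 CPM, against 52.8 and 78.6 CPM (-5.38 ± 0.69), while the endothelial genes Tek, Tie1 and Emcn had no read in any NC_CD8 library. Tek was at 0 and 2.66 CPM and Tie1 at 0.0444 and 1.72 CPM in PDC libraries. Among 14 leukotriene and prostaglandin genes 6 were higher and 2 lower. Ptgs2, the inducible cyclooxygenase, was at 629, 829 and 819 CPM, against 2.49 and 2.56 CPM (8.23 ± 0.81, adjusted p = 4.92e-07), and Alox5, the leukotriene synthase, at 24.6, 40.1 and 32.1 CPM, against 0 and 1.28 CPM (5.68 ± 1.15).

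Early lymphoid genes were lower in NC_CD8 cells in 4 of 10 cases and higher in none (edgeR; 4 and 0 also at an unadjusted p under 0.05 and by DESeq2), and all 10 were lower in the batch B pair. Dntt, the terminal transferase of lymphoid progenitors, was at 1.35, 0.0492 and 0.268 CPM in NC_CD8 cells, against 166 and 159 CPM in PDC (-8.12 ± 0.89, adjusted p = 2.73e-06). Ighm, the mu heavy chain, was at 676, 910.3 and 793 CPM, against 2339 and 2996 CPM (-1.75 ± 0.34). Rag1 failed the filter, with 21 reads in the PDC library of batch B and none in the other 4. Among 12 BCL2 family genes 4 were higher and 1 lower, and 7 and 3 with the batch block. The survival gene Bcl2a1b was at 48.8, 45 and 57.3 CPM in NC_CD8 cells, against 0.667 and 0.934 CPM in PDC (5.97 ± 0.42), but 79.2% of its 50-base words occur in its near copies. Pmaip1, the BH3-only gene Noxa, was at 1684, 1844 and 1539 CPM, against 245 and 152 CPM (3.09 ± 0.31). Of 21 cell division genes 6 were higher and none lower (edgeR; 9 and 0 at an unadjusted p under 0.05, and 8 and 0 by DESeq2), 10 with the block and 1 without the PDC library of batch A. Mki67 was at 25.2, 39.7 and 35.9 CPM in NC_CD8 cells, against 1.11 and 15 CPM in PDC (2.06 ± 0.68, adjusted p = 0.0322), so that the PDC libraries differed by more than the gap between the higher one and the lowest NC_CD8 library. Its call was lost without the PDC library of batch A or the NC_CD8 library of batch C or D (adjusted p from 0.063 to 0.172).

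Calls of several markers of other cells changed when single libraries were left out. Of 11 red pulp macrophage markers 7 were higher in NC_CD8 cells, 3 without the batch C library, 3 with the batch block and 11 without the batch B library or by DESeq2. The complement gene C1qa was at 0, 78.1 and 17.7 CPM in NC_CD8 libraries, against 0 and 0 CPM in PDC libraries, and was not called with the block (adjusted p = 0.282) or without either PDC library or the NC_CD8 library of batch C (adjusted p from 0.0666 to 0.129). Of 10 T cell markers 4 were higher and 1 lower, and 1 was higher without the PDC library of batch B and 2 without the NC_CD8 library of batch C. Of 10 NK cell markers 6 were higher, and 3 without the NC_CD8 library of batch C or without either PDC library. Of these genes, Tcf7, a T cell factor, was at 88.4, 66.9 and 103 CPM in NC_CD8 cells, against 2.58 and 1.77 CPM in PDC (5.30 ± 0.76). Klrk1, which encodes NKG2D, was at 133, 119 and 128 CPM, against 15.6 and 12.7 CPM (3.16 ± 0.30). Both were higher in every NC_CD8 library than in either PDC library, as were 25.0% of all tested genes. Of 8 B cell markers 4 were higher, and 2 without either PDC library. No erythroid marker was called by edgeR (5 at an unadjusted p under 0.05, and 5 by DESeq2), while 5 of 7 were higher without the NC_CD8 library of batch B and 3 with no filter on low counts. Of 9 plasma cell markers 4 were lower and 2 higher, with the syndecan gene Sdc1 at 0.674, 0.542 and 2.15 CPM in NC_CD8 cells, against 56.1 and 116 CPM in PDC (-6.30 ± 0.82). Of 9 fibroblast markers 4 were lower, and none without the PDC library of batch B.

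The 12 most strongly lowered genes that met the rule for named genes were Dcn, Col3a1, Klk1b5, Klk1, Grm8, Klk1b4, Klk1b3, Dntt, Ccdc162, Myh13, Klk1b27 and Cpb1. Dcn and Col3a1, matrix genes of fibroblasts, had no read in NC_CD8 libraries, and 0.444 and 74.8 CPM and 0.578 and 47.7 CPM in the PDC libraries of batches A and B. Their calls were lost without the PDC library of batch B (adjusted p = 0.364 and 0.222) and without any 1 NC_CD8 library (adjusted p from 0.0523 to 0.0737), and those of Col3a1, Myh13 and Cpb1 were lost by DESeq2 (adjusted p = 0.199, 0.0555 and 0.088). The tissue kallikreins formed a group of 5. Klk1 was at 3.8, 1.67 and 1.41 CPM in NC_CD8 cells, against 690.5 and 880.4 CPM in PDC (-8.39 ± 1.05, adjusted p = 8.17e-06), and Klk1b5 at 0.241, 0.197 and 0.335 CPM, against 106 and 128 CPM (-8.82 ± 0.60, adjusted p = 7.29e-09). These genes share 14.3% (Klk1b27) to 24% (Klk1) of their 50-base words with other genes, so reads may have been split among them. Grm8, a glutamate receptor, was at 0.77, 0.0985 and 0.47 CPM, against 114 and 152 CPM (-8.20 ± 0.86), and the skeletal myosin gene Myh13 at 0.337, 0 and 0 CPM, against 28.5 and 31.2 CPM (-7.85 ± 1.22).

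The 12 most strongly raised were 2900026A02Rik, Zfp366, Clec7a, Tlr11, Kcnip3, Anpep, Gcsam, Tmod2, Adam23, Il1b, Ptgs2 and Hap1. Adam23, a disintegrin family member without protease activity, was at 641, 625 and 754 CPM in NC_CD8 cells, against 2.18 and 1.62 CPM in PDC (8.46 ± 0.35, adjusted p = 1.72e-11). Its SE was the smallest of the 12. Anpep, the aminopeptidase CD13, was at 47.5, 79.7 and 65.3 CPM, against 0.178 and 0.0984 CPM (8.77 ± 0.75), and Kcnip3, a calcium-binding channel partner and repressor, at 35, 32.6 and 40.6 CPM, against 0 and 0.148 CPM (8.86 ± 0.58). Tmod2, an actin-capping tropomodulin, was at 33.8, 27.8 and 47.4 CPM, against 0.178 and 0 CPM (8.50 ± 0.99). The mean level of Adam23 in C_CD8, Esam-hi and Esam-lo WT cells was 385 ± 51.8, 800.4 ± 43.4 and 436 ± 208 CPM, whereas that of Tmod2 was 0.995 ± 0.901, 27.6 ± 2.75 and 7.63 ± 5.07 CPM (SD, n = 3, 2 and 2).

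The same subsets from ITD mice were compared in 3 NC_CD8 and 2 PDC libraries, whose levels do not enter the WT fold changes. They come from the same batches and the same fit, with a shared filter, scaling and estimate of spread. Agreement between genotypes is therefore not an independent test. Calls were made for 28.2% of genes, with NC_CD8 cells higher in 2623 (14.5%) and lower in 2483 (13.7%). Called in both genotypes and in the same direction were 3840 genes, 80.4% of the WT calls and 75.2% of the ITD calls. Zbtb46 averaged 402 ± 68.4 CPM in NC_CD8 ITD cells and 4.94 ± 1.5 CPM in PDC ITD cells (SD, n = 3 and 2), a log2 fold change of 6.35 ± 0.25. H2-Ob had a fold change of 5.28 ± 0.18, Siglech of -5.03 ± 0.60 and Cox6a2 of -7.61 ± 0.47 in ITD cells. Of the 15 plasmacytoid factors 10 were lower, of the 22 surface and marker genes 19, and of the 18 class II genes 16 were higher and 1 lower. The cDC1 list was less one-sided, 9 higher and 4 lower, with a median of 1.51, against 3.39 in WT cells. Xcr1 was not called in ITD cells (1.49 ± 0.65), and neither was Gcsam (1.25 ± 0.78). For cell division genes the counts were 1 higher and 3 lower. No gene of these lists differed between genotypes by the test of the difference itself (edgeR interaction contrast; adjusted p = 0.262 for Xcr1 and 0.195 for Gcsam). A single gene of 18093 (0.00553%) did, 1700025G04Rik, named here after its values were seen.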

How the data were processed

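Dendritic cell subsets were sorted from the spleen and their RNA was sequenced. RNA was purified on PicoPure columns, for some samples after Trizol, and amplified with SMART-seq v4, per the labels' protocols. The submitters' processing notes name bcl2fastq 1.8.4, Bowtie2, DESeq2 1.8.2 and the mm10 build. The counting tool is not given in the sources used here, nor are its annotation and strand setting. Raw read counts per Ensembl gene were used as the authors deposited them; the authors' normalized table was not used. Symbols and positions came from GENCODE M21 (37607 of 39017 genes; those without a symbol held 0.598% of counts), and promoters from RefSeq.

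Counts were scaled by TMM and filtered with edgeR's filterByExpr (minimum count 10), which left 18093 genes. A quasi-likelihood model with 10 group means was fitted to all 24 libraries (14 residual degrees of freedom, biological coefficient of variation 0.317) with edgeR 4.0.16 in R 4.3.3, and p-values were adjusted by Benjamini-Hochberg over all genes. The SE is the size of the log2 fold change divided by the square root of the F statistic. Replicate numbers in the titles do not match the experiment batches, so the batch letter served as the block (11 residual degrees of freedom, coefficient of variation 0.174). Deviations from group means of libraries that share a batch letter had a median correlation of 0.139 over 72 pairs, against -0.0601 over 186 pairs that do not; the NC_CD8 and PDC WT libraries of batch B had -0.158. Batch B differences used log2 CPM with a prior count of 2. Promoters were searched over 250 bases, and shared sequence was counted in 50-base words of annotated transcripts. The scripts were tested on simulated counts. Alternatives were the block, DESeq2 1.42.0, its size factors in edgeR, other count filters, the libraries of the contrast alone and each library left out; DESeq2's missing adjusted p-values stayed missing. A group with no read of a gene was given a floor of 3 counts over the group, which covers counting error only.

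The members and gene lists were chosen with earlier results of these data known. Named genes were 20 marker and lineage genes; in each of 36 lists up to 4 called members with the largest change in each direction, and all where 5 or fewer were called; and the 12 highest and 12 lowest genes that averaged at least 20 CPM in the higher group, did not overlap, had the same direction in batch B and were also called with the block. Other list members are given as values, and a few are not reported here. Replicates came from independent experiments, per the series' design text.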

Additional observations from a re-analysis of the deposited data

Results flagged for a closer look

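The difference between NC_CD8 and PDC cells itself differed between genotypes for 1700025G04Rik, a protein-coding gene with no role given in the sources used here. It averaged 57.6 ± 3.98 CPM in NC_CD8 ITD cells and 5.87 ± 1.17 CPM in PDC ITD cells, a log2 fold change of 3.29 ± 0.21 (SE; n = 3 and 2). In WT cells it was at 63.5, 59 and 54.7 CPM in NC_CD8 libraries, against 1.51 and 1.62 CPM in PDC libraries, a log2 fold change of 5.23 ± 0.24. The ITD minus WT difference was -1.94 ± 0.28 (edgeR quasi-likelihood interaction contrast, adjusted p = 0.032). No gene passed this test when the PDC WT library of batch A, the PDC ITD library of batch B, the NC_CD8 WT library of batch B or C, or any 1 NC_CD8 ITD library was left out, or when these libraries were fitted alone. The PDC means differed between genotypes by more than the NC_CD8 means.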

How the results depend on the processing

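With experiment batch as a block, in the pairing that the labels' batch letters give, WT counts were 4124 higher and 3746 lower, ITD counts 4084 and 3840, and 9 genes differed between genotypes. The block also moved the calls and list counts given beside the results. With a fold change of at least 1 (log2) required, 1510 genes were lower in WT and 1583 in ITD NC_CD8 cells. Leaving out 1 library at a time gave 1748 to 2353 higher and 1492 to 1998 lower genes in WT, the lowest count of lower genes without the PDC library of batch B. In ITD it gave 1712 to 2419 higher and 1708 to 2392 lower genes. The 1 gene that differed between genotypes became 0 to 20 when a library was left out, 0 with the libraries of the contrast alone and 36 by DESeq2. The cause of these shifts was not tested. Of 321 named genes and called list members, 314 kept their direction under every alternative that gave a value, and 221 of the 319 called ones kept their call under every alternative with a test. Turned round were C1qb (-0.69), Cd3d (-0.66), Fcgr3 (-0.20), Mrc1 (-1.50), Slc40a1 (-2.63) and Xcl1 (-0.34) in the batch B pair, and Cox6a1, which was not called, with the block (0.18) and in the batch B pair (0.0115). C1qa, C1qc and Clec5a had no read in batch B, so that pair gave no value. Every scaling moved the median of all genes by under 0.1. With 2 PDC libraries, the spread behind each test came mostly from the other groups of the series.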

Other observations

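Sex-linked genes set the PDC library of batch B apart. The Y-linked gene Ddx3y was at 217, 173 and 252 CPM in NC_CD8 libraries, against 212 and 0.197 CPM in PDC libraries, and Xist, which is expressed from the inactive X chromosome, at 34.5, 0 and 0 CPM, against 90.8 and 270.2 CPM. Neither was called in the fit (1.01 ± 1.37 and -3.95 ± 2.77), but with the batch block 4 of 5 sex-linked genes were higher and Xist lower (-2.75, adjusted p = 0.00141). The sex of the mice is not given in the sources used here.

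Some differences rested on the PDC library of batch A. Tspan2, a tetraspanin and 1 of the 18 called genes whose direction was opposite in batch B, was at 37.2, 31.5 and 31.0 CPM in NC_CD8 libraries, against 161 and 32.8 CPM in PDC libraries, and was called lower. Among genes that were not called, Bcl2l11, which encodes the BH3-only protein Bim, was at 257, 86.1 and 147 CPM, against 494 and 43 CPM, a log2 fold change of -0.72 ± 0.74 in the fit and 2.17 with the block (adjusted p = 6.29e-06). These 2 were chosen after their values were seen.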
